A study of Homo sapiens with 12 samples.

Results

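The 30 genes described here are the housekeeping probes of a NanoString panel, chosen as all genes whose probe class is Housekeeping in the authors' tables. They make up 30 of 770 genes, and the other 740 are endogenous probes. The panel, PanCancer Progression, counts fluorescent barcodes hybridised to single transcripts, and was used here on HCT-116, an epithelial line long established from a human colorectal carcinoma. Of 12 samples, 3 were controls, 3 received heteronemin, a sesterterpenoid of a marine sponge, 3 received tetrac, a deaminated analogue of thyroxine, and 3 received both, called the combination below. Treatment lasted 24 h and RNA was taken with TRIzol, per the labels. Doses and the vehicle are not stated in the sources used here. Nor do the labels say that the 3 samples of a group were separate cultures, so a p-value covers the spread of these samples alone, and that spread may be technical.

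Housekeeping genes serve upkeep that every cell performs, such as splicing, ribosome assembly, translation and membrane traffic. In a hybridisation assay they are the usual reference: counts are scaled so that the housekeeping genes are level between samples, and every other gene is read against them. A reference gene that itself responds to a treatment shifts all other ratios by a share of its own change. The question here was how steady these 30 genes were over the 4 groups, and whether their ratios depended on their level.

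The tables hold 1 mean of normalized counts per gene and group, 1 ratio and 1 p-value per gene and treatment, and no values of single samples. No SD, interval or raw depth can therefore be given, and a change is read only through the authors' p. A gene is called here when that p, printed to 2 decimals and not adjusted, is under 0.05. All 30 members had a p in all 3 tables. Group values below are the authors' means, on a scale of normalized counts, and a ratio is a treated mean over the control mean. The lowest value in the tables is 33, which is taken as a floor. The accession that the tables pair with each symbol is of a transcript, and all 30 symbols are current in the RefSeq gene table.

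The promoters add to the description of these genes, so 4 of them are given: those of FCF1, the largest called rise, SAP130, the largest called fall, USP39, the lowest p, and AGK, the narrowest span of group means. Each run is the 250 bases before the RefSeq start on GRCh38.p14, read 5′ to 3′ on the gene's strand. The runs lie at chr14:74712894-74713143 (plus strand), chr2:128028060-128028309 (minus strand), chr2:85602611-85602860 (plus strand) and chr7:141551160-141551409 (plus strand), each just outside the 5′ end of its gene. Where RefSeq lists several starts, the most upstream was taken. Capitals mark CCGGAAG, the core bound by ETS factors, and ACTACAA, the beginning of the motif bound by ZNF143, itself a member, on either strand.
FCF1: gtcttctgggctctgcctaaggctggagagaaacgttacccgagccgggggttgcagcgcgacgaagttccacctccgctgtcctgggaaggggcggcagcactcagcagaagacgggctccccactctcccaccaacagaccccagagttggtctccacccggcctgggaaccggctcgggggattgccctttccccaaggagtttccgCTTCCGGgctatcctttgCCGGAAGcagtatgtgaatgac
SAP130: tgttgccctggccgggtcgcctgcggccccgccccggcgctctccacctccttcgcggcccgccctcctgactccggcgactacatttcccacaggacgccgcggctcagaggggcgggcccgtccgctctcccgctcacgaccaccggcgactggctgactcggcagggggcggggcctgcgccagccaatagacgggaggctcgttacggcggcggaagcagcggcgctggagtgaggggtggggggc
USP39: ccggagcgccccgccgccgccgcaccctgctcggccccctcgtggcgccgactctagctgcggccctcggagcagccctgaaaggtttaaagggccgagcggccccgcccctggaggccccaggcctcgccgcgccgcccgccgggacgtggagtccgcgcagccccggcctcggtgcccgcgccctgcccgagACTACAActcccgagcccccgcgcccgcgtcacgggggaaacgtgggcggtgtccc
AGK: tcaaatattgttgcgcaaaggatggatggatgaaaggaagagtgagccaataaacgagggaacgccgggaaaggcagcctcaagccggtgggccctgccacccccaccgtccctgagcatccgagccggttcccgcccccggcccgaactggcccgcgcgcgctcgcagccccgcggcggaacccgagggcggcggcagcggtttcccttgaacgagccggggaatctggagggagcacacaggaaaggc

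An entry was found for 29 members, all but COG7. Of these 29, 26 had a CpG content above 0.6 of that expected from base composition, or 89.7%, against 63.2% of 15811 other protein-coding genes. TATAAA was found in 0 of the 29 on either strand, against 9.37% of the others. CCGGAAG was found in 10, or 34.5%, against 11.7%. It occurred in duplicate in FCF1 and ERCC3. ACTACAA was found in 4, namely CNOT10, EIF2B4, TLK2 and USP39, or 13.8%, against 2.85%. In that order, the CpG content of these windows was 0.128, 0.78, 0.249 and 0.975 of that expected. RefSeq lists 6 starts for TLK2, and a window at the most upstream start may miss the start in use. GGGCGG, the GC box, was found in 62.1% against 55.8%, and CCAAT in 44.8% against 34.5%. Both strands were searched for each, and no motif contains another. These are matches of letters in a window and were given no test.

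The housekeeping genes covered a wide range of levels. In control the lowest was CC2D1B at the floor of 33 and the highest FCF1 at 1695, with a median of 351. Their geometric mean was 299.6 in control and 296.1, 299.5 and 297.5 after heteronemin, tetrac and under the combination, log2 differences from control of -0.02, -0.0007 and -0.01. A normalization to these genes sets that mean, so its evenness is no finding. Whether all 30, or which of them, served as the authors' reference is not stated in the sources used here. Over the whole panel the sum of means ran from 280484 after heteronemin to 333810 in control, and the members' share of it from 3.98% in control to 4.64% after heteronemin. In control 279 genes of the panel were at the floor, against 61 to 90 in the treated groups. The labelled cell type was checked against its markers. In control 14 of 15 measured epithelial markers were above the floor, while 8 of 12 endothelial, blood and stromal markers were at it. Those 12 summed to 433 in control, 764 after heteronemin, 550.1 after tetrac and 641 under the combination, and its part in the results below was not tested.

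Stability was first read as the span of a gene, the highest of its 4 group means over the lowest. A span is called narrow here when the highest mean is less than 25% above the lowest, and wide at 1.5-fold or more. Of the 30 members, 19 had a narrow span, 5 a wide one and 6 lay between. Over all 770 genes, 31.7% had a narrow span and 40.0% a wide one. The median span was 1.18-fold for the members and 1.40-fold for all genes. Level matters for that comparison, so it was repeated for genes with a control mean from 100 to 2000. There, 18 of 25 members and 117 of 289 endogenous genes had a narrow span, or 72.0% against 40.5%, and 2 members and 55 endogenous genes a wide one, or 8.0% against 19.0%. The median span was 1.16-fold for the members and 1.29-fold for the endogenous genes. A normalization to these genes would remove the change that they share, and its part in their narrower spans was not tested.

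**Figure D1:**
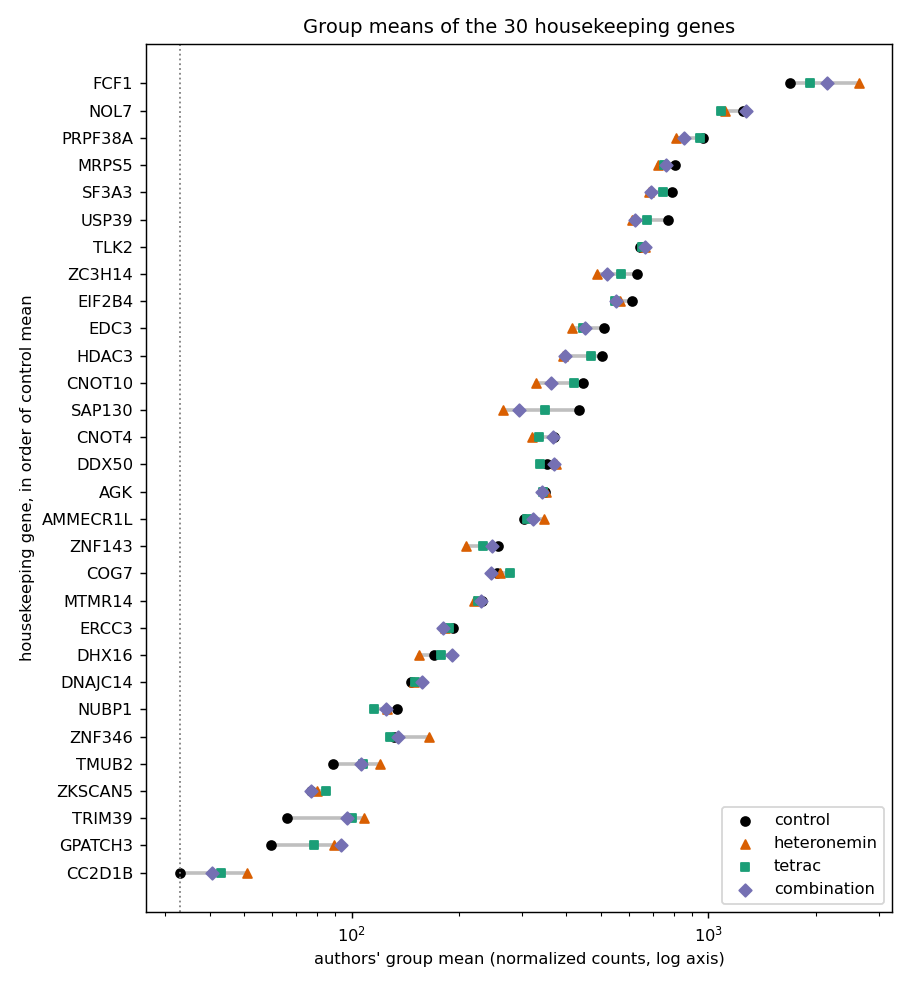
Group means of the 30 housekeeping genes in normalized counts (log axis), 1 row per gene in order of the control mean, with a symbol for each of the 4 groups, a grey bar from the lowest to the highest mean, and a dotted line at the floor of 33. AGK and TLK2 have symbols that nearly coincide, while TRIM39, SAP130, GPATCH3, FCF1 and CC2D1B have bars of 1.5-fold or more.

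The narrowest spans belonged to genes of unlike function. AGK, a lipid kinase of the mitochondrion, had 349 in control, 351 after heteronemin, 343 after tetrac and 341 under the combination, a span of 1.03-fold. Of the 289 endogenous genes with a control mean from 100 to 2000, 0 had a span as narrow, but the narrowest, at 1.029-fold, was close to the 1.027-fold of AGK. TLK2, a kinase acting on a histone chaperone, had 645, 663, 654 and 664 in the same order, also 1.03-fold, and 1 of those 289 was as narrow. MTMR14, a phosphatase of phosphoinositides, had 232, 221, 227 and 230, a span of 1.05-fold. ERCC3, a helicase of the general transcription factor TFIIH, had 192, 183, 187 and 181, a span of 1.06-fold, and DNAJC14, a chaperone of the J-domain family, had 147, 149, 150 and 158, a span of 1.08-fold. These 5 have p-values of 0.37 or more in each of the 3 comparisons of the authors' deposited table, which does not show that they were equal.

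**Figure D2:**
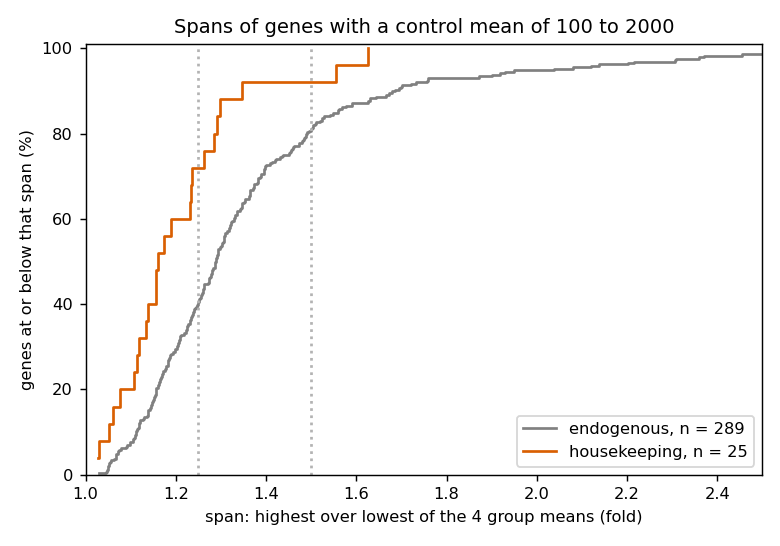
Cumulative share of genes (%) against span, the highest over the lowest of the 4 group means (fold), for 25 housekeeping and 289 endogenous genes with a control mean of 100 to 2000; dotted lines mark the limits of a narrow (25% above the lowest mean) and a wide span (1.5-fold), and the axis ends at 2.5-fold. The housekeeping line lies above the endogenous one, with 72.0% against 40.5% of genes under the narrow limit.

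At the other end stood TRIM39, a ubiquitin ligase, with 65.8 in control, 109 after heteronemin, 100.2 after tetrac and 97.3 under the combination, a span of 1.65-fold. SAP130, a subunit of the Sin3 corepressor, spanned 1.63-fold, GPATCH3, a G-patch protein, 1.57-fold, FCF1 1.56-fold and CC2D1B 1.54-fold. In 4 of these 5, control was the lowest group, and in SAP130 it was the highest. The members most like TRIM39 in their 3 log2 ratios were GPATCH3, CC2D1B and FCF1, with root mean square differences of 0.15, 0.21 and 0.28. Except for FCF1, these had control means under 100. None of TRIM39, GPATCH3 and CC2D1B was called in any comparison. CC2D1B was at the floor in control, so that its ratios are measured against the floor and not against a level.

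Heteronemin was set against control to see which reference genes it moved. Of the 30 members, 10 were called in the authors' deposited table, or 33.3%, 2 higher and 8 lower. The background is 27.1% of 704 tested genes, 11.2% higher and 15.9% lower, so the members' share was near that of the panel. The p-values of the 10 in the authors' deposited table are 0.01 to 0.03, and 0 of them passed after Benjamini-Hochberg adjustment over all tested genes. Among genes with a control mean from 100 to 2000, 40.0% of the members and 37.0% of the endogenous genes were called. The directions hold on the authors' scale. Each group was also scaled to the same panel total, which raises all log2 ratios for heteronemin by 0.25. No p can be had on that scale, so the 10 calls were kept and only their directions were read anew. Of the 10, 5 then lay above control and 5 below.

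Genes of splicing and pre-mRNA processing had 4 called members of 6, all lower, beside 15.9% of all tested genes called lower. The 4 have control means between 600 and 2000, where 37 of 84 endogenous genes were called lower. A group this small was given no test. USP39, a scaffold of the spliceosomal tri-snRNP, had 770 in control, 610 after heteronemin, 675 after tetrac and 622 under the combination. It was 1.26-fold lower after heteronemin, with p = 0.03 in the authors' deposited table. ZC3H14, which binds poly(A) tails, had 632.5, 487, 570 and 519, and was 1.30-fold lower after heteronemin. PRPF38A, a spliceosome component, had 967, 813, 949.9 and 856, and SF3A3, a subunit of the branch-site complex SF3a, had 789.6, 683, 749 and 689. They were 1.19-fold and 1.16-fold lower after heteronemin, but lay at log2 ratios of 0.0011 and 0.04 when scaled to the panel total, where they no longer were lower. In all 4 genes control was the highest group and heteronemin the lowest, with tetrac between. The other 2 members were not called. The helicase DHX16 had 171, 155, 178 and 191, and GPATCH3 went the other way, with log2 ratios of 0.58 after heteronemin and 0.65 under the combination.

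Genes of mRNA turnover had 2 called members of 3, both lower, beside the same 15.9% of all tested genes, and again without a test. Both have control means between 300 and 600, where 30 of 82 endogenous genes were called lower. CNOT10, a subunit of the CCR4-NOT deadenylase complex, had 444 in control, 329.6 after heteronemin, 421 after tetrac and 362 under the combination, and was 1.35-fold lower after heteronemin, with p = 0.01 in the authors' deposited table. CNOT4, a ubiquitin ligase tied to the same complex, had 370.2, 319.9, 336 and 367, and was 1.16-fold lower after heteronemin, at a log2 ratio of 0.04 when scaled to the panel total. Under the combination CNOT4 was back within a log2 ratio of -0.01 of control, and CNOT10 was not. The decapping factor EDC3, at 512, 415, 446 and 452, was not called.

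Of 9 genes listed here under transcription, chromatin and DNA repair, 1 was called higher and 2 lower, beside 11.2% and 15.9% of all tested genes. The list is a loose one, and the gene called higher, ZNF346, is an RNA-binding protein. SAP130 had 433 in control, 267 after heteronemin, 349 after tetrac and 295 under the combination. It was 1.63-fold lower after heteronemin, with p = 0.01 in the authors' deposited table. All 3 treated groups were below control. HDAC3, the deacetylase of the NCoR corepressor, had 504, 392, 469.7 and 396, and was 1.29-fold lower after heteronemin. ZNF346, a zinc finger protein that binds double-stranded RNA, had 132, 165, 128 and 135, and was 1.26-fold higher after heteronemin alone, with the other 3 groups close together. Not called were AMMECR1L, CC2D1B, ERCC3, TLK2, ZKSCAN5 and ZNF143, the last at 258, 209, 234 and 247.

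Among genes of the nucleolus and of ribosome assembly, FCF1, a nuclease-like factor of the small-subunit processome, was the most abundant probe of the class and the largest called rise. It had 1695 in control, 2637 after heteronemin, 1930.4 after tetrac and 2154 under the combination. It was 1.56-fold higher after heteronemin, with p = 0.03 in the authors' deposited table. It was the 1 called gene of the 3 in this group, beside 11.2% of all tested genes called higher. All treated groups were above control. Of the other 2 genes, NOL7 had 1251, 1115, 1086 and 1275 and DDX50, a nucleolar helicase, had 353, 375, 338 and 370.3, neither of them called. The smaller role groups were given no test. Of all tested genes, 27.1% were called after heteronemin. In these groups no member was called: EIF2B4 and MRPS5 of translation, COG7, DNAJC14 and MTMR14 of membrane traffic and folding, AGK and NUBP1 of the mitochondrion and iron-sulphur assembly, and TMUB2 and TRIM39. Their spans ran from the 1.03-fold of AGK to the 1.65-fold of TRIM39.

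Tetrac moved none of the 30 past the threshold. The background is small too: 1.26% of 714 tested genes were called, 0.28% higher and 0.98% lower. The smallest p-values among the members in the authors' deposited table were 0.08 for CNOT4 and 0.09 for SAP130, at log2 ratios of -0.14 and -0.31. The log2 ratios ran from that of SAP130 to 0.61 for TRIM39, and in 27 of 30 members the higher mean was less than 25% above the lower. After Benjamini-Hochberg adjustment over all genes the count was also 0.

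Under the combination 3 members were called in the authors' deposited table, or 10.0%, all lower, against 22.3% of 686 tested genes, 8.16% higher and 14.1% lower. They were SAP130 (1.47-fold lower), HDAC3 (1.27-fold lower) and USP39 (1.24-fold lower), and all 3 kept a log2 ratio below 0 when scaled to the panel total. The p of USP39 is printed as 0, which stands for any value under 0.005. It alone passed Benjamini-Hochberg adjustment over all tested genes, and 0 passed with the largest p that the rounding allows. These 3 were called after heteronemin as well, in a comparison that shares the control samples. CNOT10 and PRPF38A, at log2 ratios of -0.30 and -0.18, have a printed p of 0.05 and so were not called. Among genes with a control mean from 100 to 2000, 12.0% of the members were called and 37.4% of the endogenous genes. Spread over genes went the same way: around their own median, the median absolute log2 deviation was 0.12 for the 25 members and 0.19 for the 289 endogenous genes, against 0.16 and 0.20 after heteronemin and 0.07 and 0.07 after tetrac. That measure does not move with the centre of the scale.

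The ratios depended on level in all 3 comparisons. Over the 30 genes, the log2 ratio correlated with the log2 control mean at Pearson r = -0.54 and Spearman rho = -0.54 for heteronemin, -0.64 and -0.53 for tetrac, and -0.54 and -0.51 for the combination. These are descriptions over genes that share libraries and a normalization, and the control mean is also the denominator of the ratio. With level taken from the 2 groups outside each contrast, r was -0.43, -0.50 and -0.41. Over the 25 genes with a control mean of 100 or more r was -0.08, -0.08 and -0.13 and rho was -0.32, -0.21 and -0.28, so Pearson's r was close to 0 without the 5 lowest genes while the rank correlation stayed below 0 at a smaller size.

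The 5 genes under 100 in control were CC2D1B, GPATCH3, TRIM39, ZKSCAN5 and TMUB2. GPATCH3 had 59.6 in control, 89.3 after heteronemin, 78.7 after tetrac and 93.4 under the combination, and TMUB2, a ubiquitin-like membrane protein, had 88.9, 120.5, 108 and 106. CC2D1B had 33, 50.9, 43.2 and 40.6. ZKSCAN5, a zinc finger protein, stood apart from these with 77.0, 80.3, 84.6 and 77. In 4 of the 5, control was the lowest group. Over the 5 the geometric mean was 61.6 in control and 86.3, 79.2 and 78.7 in the treated groups in the same order, while that of the other 25 was 411, 379, 391 and 388. On the log2 scale the 5 lay 0.49, 0.36 and 0.35 above control and the 25 had ratios of -0.12, -0.07 and -0.08. The genes were split on the control mean, which is the denominator of these ratios, so the opposite signs are a description. The even geometric mean of all 30 thus combined a low-level part above control with a larger part below it.

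**Figure D3:**
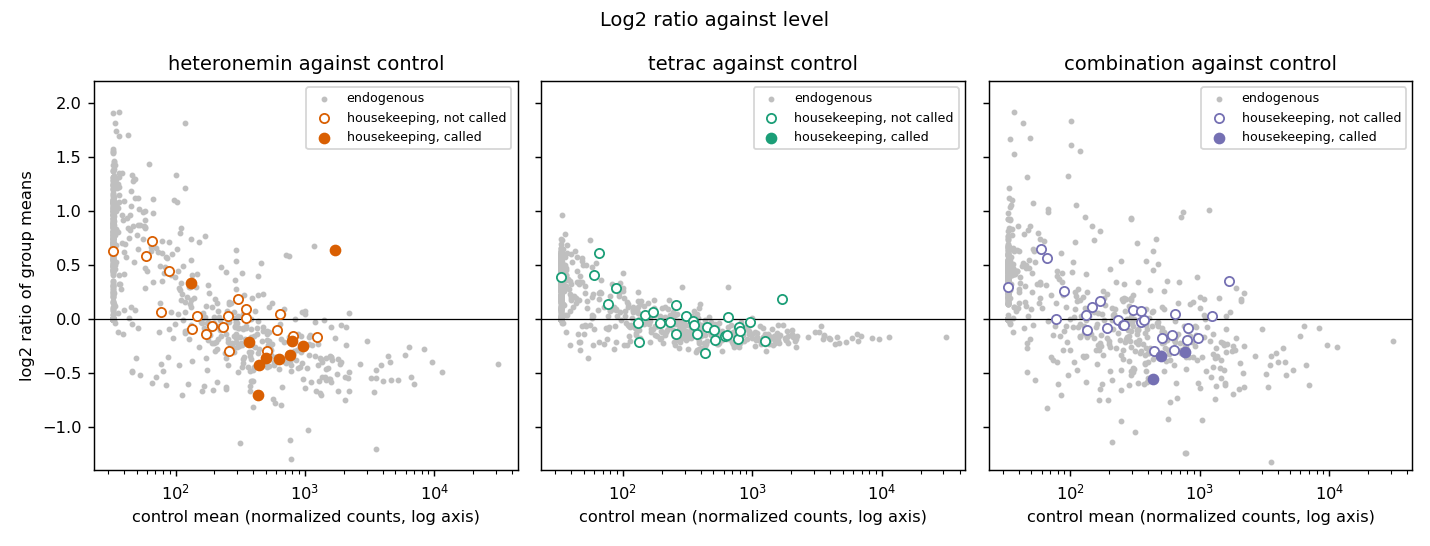
Log2 ratio of the treated over the control mean against the control mean in normalized counts (log axis), 1 panel per treatment, with endogenous genes in grey, housekeeping genes as open circles and called ones filled; 1 endogenous gene in the first panel and 2 in the third lie above the axis. Housekeeping genes under 100 lie at or above 0 and most of the others below it, within the cloud of endogenous genes.

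Endogenous genes of the same levels showed the same order. Among the 10 members of highest control mean, from 512 to 1695, the median log2 ratio was -0.19 after heteronemin, -0.13 after tetrac and -0.16 under the combination, against -0.36, -0.15 and -0.24 for the 95 endogenous genes in that range. Among the 10 in the middle, from 232 to 504, it was -0.14, -0.07 and -0.04, against -0.17, -0.09 and -0.11 for 98 endogenous genes. Among the 10 lowest it was 0.19, 0.10 and 0.14, against 0.52, 0.12 and 0.28 for the 210 endogenous genes of that range above the floor. FCF1 went against this order: at the highest level of the class, its log2 ratios were 0.64, 0.19 and 0.35. Over all genes the median log2 ratio was 0.11, 0.02 and 0.09, and over the 30 members -0.08, -0.04 and -0.02. The median of all genes includes the 279 genes at the floor in control, whose log2 ratios cannot lie below 0. Over all genes with a control mean of 100 or more it was -0.21, -0.11 and -0.16. Over the 25 members at that level it was -0.14, -0.08 and -0.06, so the order of the 2 sets was then the opposite. How the floor and the level bear on these ratios was not tested.

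The 4 groups also allow each compound to be read without and with the other, in contrasts that share no group. For heteronemin these are heteronemin over control and the combination over tetrac. Over the 30 genes their log2 ratios correlated at Pearson r = 0.42 and Spearman rho = 0.39, and 15 had the same sign. Of the 8 genes called lower after heteronemin alone, 7 were also lower in the combination than in tetrac, and CNOT4 was higher, at a log2 ratio of 0.13. Over all 30 genes the median absolute log2 ratio was 0.21 without tetrac and 0.11 with it. Of the genes called after heteronemin, SAP130 had -0.70 without tetrac and -0.25 with it, CNOT10 -0.43 and -0.22, HDAC3 -0.36 and -0.24, and FCF1 0.64 and 0.16. These genes were picked on the first contrast, so a smaller size in the second is no finding about them. The combination over tetrac has no p in the tables, and the difference between the contrasts was not tested.

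For tetrac the contrasts are tetrac over control and the combination over heteronemin. Their log2 ratios correlated at Pearson r = -0.54 and Spearman rho = -0.54 over the 30 genes, and 10 had the same sign. SAP130 had -0.31 without heteronemin and 0.14 with it, FCF1 0.19 and -0.29, and TRIM39 0.61 and -0.16. ZNF346 had -0.04 and -0.30. All 8 genes called lower after heteronemin lay above their heteronemin mean in the combination, by log2 ratios from 0.01 for SF3A3 to 0.20 for CNOT4. Both genes called higher lay below it. These genes were picked on the heteronemin mean, which is the denominator here, so this count is a description.

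**Figure D4:**
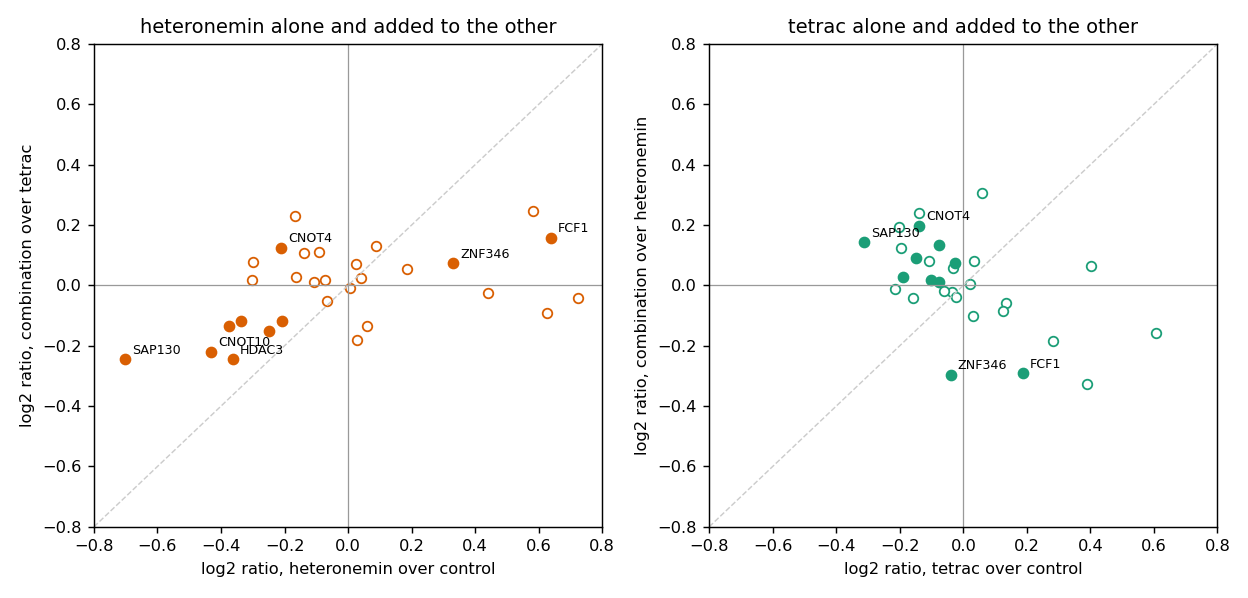
Log2 ratios of the 30 housekeeping genes, with heteronemin over control against the combination over tetrac (left) and tetrac over control against the combination over heteronemin (right); filled points are the 10 genes called after heteronemin, and the dashed line marks equal ratios. On the left 7 of the 8 filled points below 0 are below 0 on both axes, and on the right points lie mostly in opposite quadrants.

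Other genes in use as references are endogenous probes of this panel. Of 27 listed, 7 were measured: ALDOA, CDC42, ENO1, LDHA, PGK1, RHOA and VIM. Their spans ran from 1.27-fold to 1.53-fold with a median of 1.32-fold, and 0 had a narrow span, against 19 of the 30 housekeeping probes. The lowest span is that of VIM, which lay near the floor of 33 and is a poor reference here. It had 39.0 in control, 35.4 after heteronemin, 33 after tetrac and 41.8 under the combination. After heteronemin 3 of the 7 were called lower, namely LDHA, PGK1 and CDC42, and under the combination 2, LDHA and CDC42. Of all tested genes, 15.9% and 14.1% were called lower. ALDOA, ENO1, RHOA and VIM also had lower means after heteronemin but were not called. The median log2 ratio of the 7 was -0.40 after heteronemin, -0.19 after tetrac and -0.27 under the combination. All but VIM lie above 1000 in control, a level that only NOL7 and FCF1 reach among the members, so level and probe class cannot be told apart here.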

How the data were processed

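RNA of 12 HCT-116 samples in 4 groups was counted on nCounter. Raw counts were normalized by the authors in nSolver 4.0, per the series' design text, with a positive control factor per sample and a biological normalization. The authors deposited 3 tables, 1 per treatment, with a normalized signal (the group mean) for the treated group and control, a score (signed fold change) and a p-value per gene. Recomputed from those means, the score differed by at most 0.00511. The kind of mean, the test and the reference genes are not stated in the sources used here.

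From the means, log2 ratios, spans and geometric means were computed, with Benjamini-Hochberg adjustment over all genes of a table, from the printed p and from the largest p that rounds to it. The members are all probes of class Housekeeping; those called in any table and the 5 narrowest and 5 widest spans are given with all 4 means. Members, lists and tests were chosen with earlier results of these data known. Alternatives were other call rules, scalings and level minimums. Counting of calls was tested on simulated data. Promoter sequences are those of RefSeq (GRCh38.p14). The tables name no genome build. Python 3.11.15, numpy 2.4.6, scipy 1.17.1, pandas 2.3.3 and matplotlib 3.10.9 were used.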

Additional observations from a re-analysis of the deposited data

How the results depend on the processing

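Of the members called after heteronemin (2 higher, 8 lower), 0 and 2 had a p at 0.01 or less, 0 and 0 passed after Benjamini-Hochberg adjustment on the printed p or the largest that rounds to it, and in 5 of the lower genes control was at least 25% above the treated mean (the 2 higher genes also passed this size). Of the 3 called under the combination, 1 had a p at 0.01 or less, 1 passed adjustment on the printed p, and 0 on the largest p. For tetrac the count was 0 under each of these rules. The scalings kept the authors' calls, and only the direction was read anew. Scaled to the panel total, 5 of the genes called after heteronemin lay above control and 5 below. CNOT4, PRPF38A and SF3A3 turned to log2 ratios of 0.0405, 0.0011 and 0.0423. The other 10 called ratios kept their direction there, and all 13 did under the other 3 scalings.

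The median log2 ratio of the members for heteronemin, tetrac and the combination was 0.169, 0.0836 and 0.142 scaled to the panel total, 0.108, 0.0679 and 0.123 scaled to the median of the 356 genes with a 4-group mean of 100 or more, 0.0359, 0.0356 and 0.0596 scaled to the 25 members with a control mean of 100 or more, -0.0684, -0.0298 and -0.0264 scaled to the 5 of narrowest span, and -0.123, -0.0692 and -0.0586 over members with such a mean. The first 2 scalings moved the median of all genes by 0.25 and 0.19 for heteronemin. The level correlation was -0.440, -0.549 and -0.442 with level as the geometric mean of the 4 groups, -0.433, -0.501 and -0.408 with level from the 2 groups outside the contrast, -0.384, -0.500 and -0.401 without CC2D1B and GPATCH3, the 2 genes farthest from the median level, and -0.0791, -0.0833 and -0.129 over the 25 genes at 100 or more in control, where Spearman's rho was -0.318, -0.209 and -0.277. Apart from these rho, the values are Pearson's r. Among members with a 4-group mean of 100 or more, 2 spanned 1.5-fold or more, and the correlation without and with the other compound was 0.533 for heteronemin and -0.523 for tetrac.

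Scalings to members, the level from outside the contrast and the control minimum of 100 were chosen after seeing the data. Leaving out replicates was not run, since the tables hold group means. No paired analysis was possible because the columns are group means without replicate numbers.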

Other observations

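The choice of reference genes sets where the panel's ratios are centred, which can be read from these means. Scaling to the 25 housekeeping genes with a control mean of 100 or more, in place of the authors' scale, would raise every log2 ratio by 0.12 for heteronemin, 0.07 for tetrac and 0.08 for the combination. Those 25 were picked on the control mean, which is the denominator of these ratios. With the authors' calls kept, this scaling would turn the sign of 0 of the 191, 9 and 153 called genes of the panel in these comparisons. Scaling to the 5 members of narrowest span, AGK, TLK2, MTMR14, ERCC3 and DNAJC14, would move the ratios by 0.01, 0.01 and 0.00 (-0.0034 for the combination), but those 5 are narrow on the authors' scale by choice. Scaling to the panel total would turn the sign of 15 of the 191 called genes for heteronemin and of 1 of the 153 for the combination. Whether they would be called on that scale cannot be read from group means. All members have the same weight in their geometric mean, so leaving out 1 can move it little. Its log2 ratio over control moved by at most 0.0255 for heteronemin, with TRIM39 left out. For tetrac the largest move was 0.0209, with TRIM39, and for the combination 0.0227, with GPATCH3. The heteronemin ratio was -0.0171 with all 30 and ran from -0.0426 to 0.0065 with 1 left out, so its sign depended on single genes. A normalization to these genes would hold that ratio near 0, so its sign is no finding.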
